A study of Homo sapiens with 16 samples.

Results

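The response to glutamine withdrawal that 4 derivatives of 2 colorectal carcinoma lines had in common was measured by setting the 8 arrays of cells without glutamine (-Gln) against the 8 arrays of cells with it (+Gln), which are all 16 arrays of the study. DLD1 and HCT116 are established human lines, and of each there were 2 derivatives with different alleles of PIK3CA, which encodes a catalytic subunit of phosphoinositide 3-kinase. DLD1 Mut and HCT116 Mut cells kept the mutant allele after knockout of the wild-type one, while DLD1 WT and HCT116 WT cells kept the wild-type allele after knockout of the mutant one. Cells of each derivative were cultured without or with glutamine for 24 h in DMEM with 10% dialyzed fetal bovine serum, 2 biological replicates each, and total RNA was hybridised to Affymetrix whole-transcript arrays. Every -Gln and every +Gln group therefore carries an engineered PIK3CA locus, the unmodified parental lines are not part of the comparison, and a line has just 1 derivative of each genotype, so genotype and clone cannot be told apart. The labels call the replicates biological and say no more, so p-values measure the spread between these samples.

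Glutamine is the main nitrogen donor for nucleotides, amino sugars and several amino acids, and after deamidation it feeds the tricarboxylic acid cycle as 2-oxoglutarate. Cells sense its loss through the kinase GCN2 and the transcription factor ATF4, which switch on amino acid synthesis and transport, and through mTORC1, a kinase whose loss of activity slows ribosome production and releases autophagy. The ATF4 targets, DNA replication and sterol synthesis served here only as a frame, and the account is about genes and pathways beyond these lists. Only the listed members were set aside. Genes named below, such as replication-dependent histones or sterol-regulated genes, may therefore still belong to the same programmes.

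Of 22395 genes with a probe set of their own, the 15676 in the upper 70% of mean level were tested, and the 2 arrays of each group had r = 0.989 to 0.992 over genes, which do not count as replicates. The epithelial markers EPCAM, CDH1, CLDN7 and KRT19 were bright in both conditions (EPCAM 1387 to 2062 in -Gln and 1464 to 2377 in +Gln cells), while the enterocyte genes VIL1, CDX1 and LGALS4 were dim in both. The keratin KRT8 also read low, between 17.5 and 42.0 in -Gln and between 12.3 and 30.5 in +Gln cells. Of the 12 epithelial markers tested 1 rose (8.33%) and 3 fell (25%), against 20.1% and 19.3% of all tested genes. The summed intensity of the 12 markers was 4410 to 8475 in -Gln and 4737 to 8791 in +Gln cells. Of 8 fibroblast, 9 leukocyte and 7 endothelial markers on the array only 2 of each were bright enough to test. Among these CD68, a lysosomal glycoprotein also used as a macrophage marker, was the 1 that rose, and PTPRC, the pan-leukocyte marker, stayed between 1.67 and 1.99 in -Gln and between 1.79 and 2.37 in +Gln cells, near the lowest intensities of the arrays. In bulk RNA, fewer cells of a kind and less RNA per cell cannot be told apart. An array intensity is not a molecule count, and the precision of each change between groups is limited by the number of arrays.

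With each derivative as a block, 3148 genes (20.1% of those tested) were higher and 3030 (19.3%) lower in -Gln than in +Gln cells at a limma adjusted p under 0.05, and 7304 had an unadjusted p under 0.05. Of these 6178 called genes, 5123 changed in 1 direction in all 4 derivatives, 2596 upward and 2527 downward. Of all 15676 tested genes 6213 did so, and a call on the average of the 4 changes itself favours genes with 1 direction. A stricter set, called with 1 sign in each of the 4 derivatives by its own 2 against 2 arrays, held 555 higher genes (3.54%) and 576 lower genes (3.67%), and all 1131 of them were also called over all arrays. Below these are called shared genes. Their median log2 change, which is always -Gln minus +Gln, was 0.79 for the higher and -0.81 for the lower ones, against -0.004 over all tested genes. In every derivative 56 of the shared higher genes (0.357% of all tested) and 45 of the shared lower genes (0.287%) changed by more than 1 on the log2 scale. The count of shared higher genes depended on single arrays more than the other counts did, and was 356 without replicate 2 of the HCT116 WT +Gln group. The 4 calls of a gene are not independent in this respect, because the fit gives each gene a single spread that its 4 contrasts use.

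The genes with the largest rise in the derivative where each rose least covered a transcriptional repressor, keratin and basement membrane genes, and genes of the lysosome and of protein folding stress. BHLHE41, a repressor of the circadian clock and of E-box genes, had intensities of 37.1, 66.2 and 112 (lowest, median and highest of 8 arrays) in -Gln cells, against 7.17, 9.82 and 12.4 in +Gln cells. The groups did not overlap, as was so for 466 genes (2.97%) higher and 537 (3.43%) lower without glutamine. Its log2 change over all derivatives was 2.73 ± 0.16 (limma SE, 8 against 8 arrays, adjusted p = 4.18e-08), and it was 3.18 in DLD1 Mut, 2.31 in DLD1 WT, 3.34 in HCT116 Mut and 2.09 in HCT116 WT cells. This SE holds the differences between derivatives as well as between replicates.

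KRT80, a type II keratin, had intensities of 187, 524 and 612 in -Gln cells, against 22.1, 83.1 and 150.3 in +Gln cells. Every -Gln array was above every +Gln array, and the log2 change was 2.07 in DLD1 Mut, 1.84 in DLD1 WT, 3.57 in HCT116 Mut and 2.79 in HCT116 WT cells. GADD45A, a growth arrest gene induced by DNA damage and other stresses, had 1128, 1806 and 2499 in -Gln cells, against 300.0, 361 and 510.2 in +Gln cells. Again no arrays overlapped, and the log2 change was 2.19 ± 0.11 (limma adjusted p = 1.1e-08). LAMP3, a lysosome-associated membrane glycoprotein, changed by 2.58 ± 0.17 and MAP1LC3B, which is conjugated to autophagosome membranes, by 1.73 ± 0.12. LAMP3 was lowest in HCT116 Mut (1.62, against 2.81 to 2.99 elsewhere), whereas MAP1LC3B was highest there (2.29, against 1.52 to 1.58). The probe set of MAP1LC3B read low, with 13.6, 19.2 and 42.3 in -Gln cells and 4.34, 6.49 and 8.18 in +Gln cells.

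ERN1, the endoplasmic reticulum sensor kinase and nuclease IRE1-alpha, rose by 2.00 ± 0.10 on the log2 scale, with 115, 128 and 173 in -Gln cells and 22.9, 33.8 and 46.6 in +Gln cells. LAMB3, the beta chain of laminin-332, had a change of 3.27 in HCT116 Mut and of 1.45 to 1.82 in the other derivatives. The transcription factor ETS1 had the same order, with 3.49 in HCT116 Mut and 1.56 to 2.28 elsewhere. UPP1, which releases ribose 1-phosphate from uridine, rose by 2.38 ± 0.22, but its -Gln arrays (38.0 to 839) overlapped the +Gln arrays (10.7 to 72.9) when the derivatives were pooled. MXD1, a MAX partner that opposes MYC, rose by 1.72 ± 0.12, ABHD4, a lysophospholipase, by 1.70 ± 0.08, ATXN1, the transcriptional regulator ataxin-1, by 1.77 ± 0.11, the long noncoding RNA LINC01881 by 1.56 ± 0.11 and LURAP1L by 2.63 ± 0.23.

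**Figure D1:**
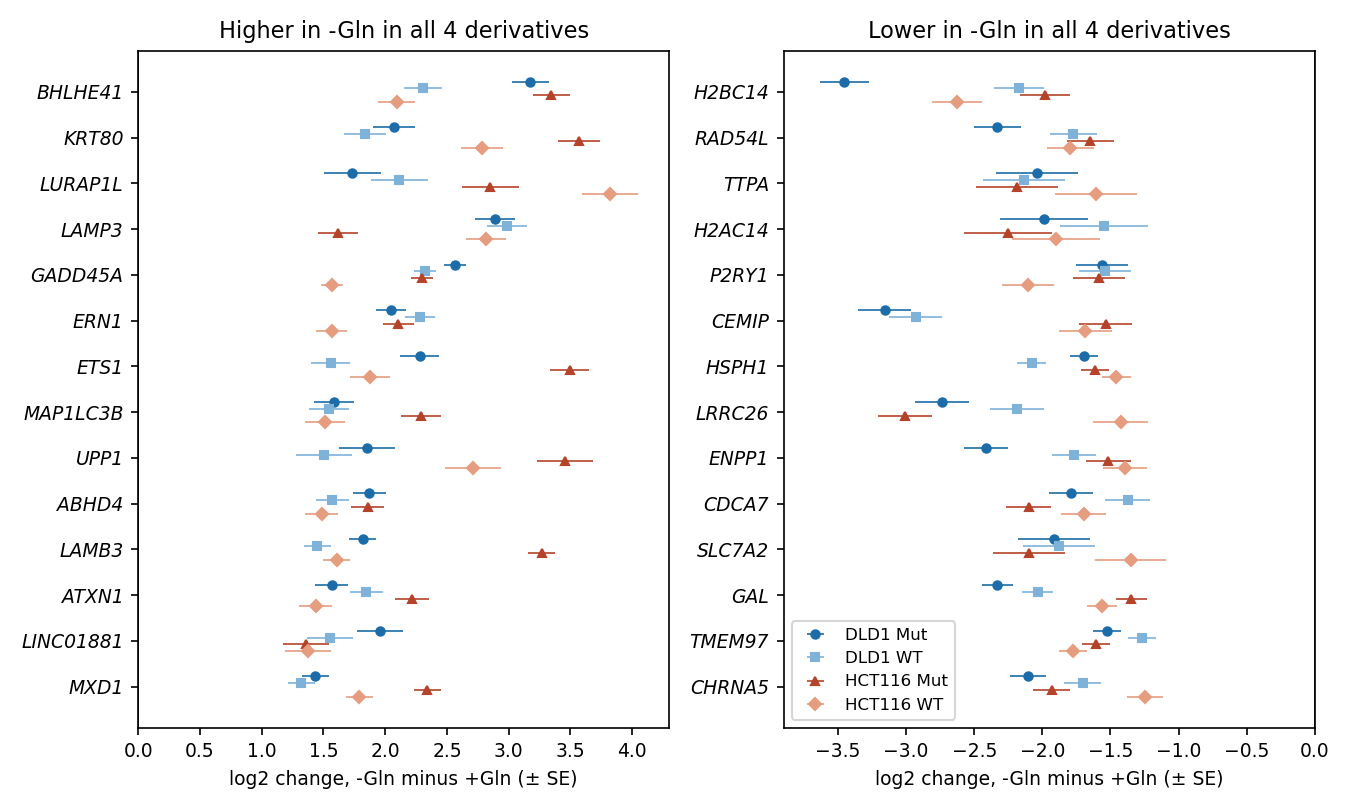
Log2 change, -Gln minus +Gln (x axis), of the 14 shared genes with the largest least rise (left) and the 14 with the largest least fall (right) outside the ATF4, replication and sterol lists. Each point is 1 derivative (2 against 2 arrays) and the bars are limma SE. Every left-hand gene is above 1.3 and every right-hand gene below -1.2 in each derivative, and the order of the derivatives differs from gene to gene.

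On the falling side stood histone genes, a recombination factor, a chaperone and several membrane or secreted proteins. H2BC14, a replication-dependent histone H2B gene, had intensities of 171, 383 and 1352 in -Gln cells, against 779, 2871 and 4436 in +Gln cells. The pooled groups overlapped, with higher values in the HCT116 derivatives, but within each derivative both -Gln arrays were below both +Gln arrays, as was so in all 4 derivatives for 1488 genes (9.49%) lower and 1512 (9.65%) higher. Its log2 change was -2.56 ± 0.17 and that of the neighbouring H2A gene H2AC14 was -1.92 ± 0.16. Both belong to families with near-identical copies, so probes may have read more than 1 gene and these values are uncertain.

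RAD54L, a motor protein of homologous recombination, had 19.0, 22.7 and 36.3 in -Gln cells, against 67.9, 91.6 and 116 in +Gln cells. The groups did not overlap, and the log2 change was -1.89 ± 0.11 (limma adjusted p = 3.34e-08). CDCA7, the partner of the chromatin remodeller HELLS, fell by 1.74 on the log2 scale, with 30.8, 41.3 and 50.3 in -Gln cells and 118, 126 and 172 in +Gln cells. HSPH1, the nucleotide exchange factor Hsp110 of the Hsp70 chaperones, had 127, 401 and 437 in -Gln cells, against 397, 1143 and 1830.2 in +Gln cells. DLD1 Mut was dimmer than the other derivatives in both conditions, and the change was -2.08 in DLD1 WT and -1.46 to -1.69 in the others.

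CEMIP, a hyaluronan-degrading protein, changed by -3.16 in DLD1 Mut and -2.93 in DLD1 WT, against -1.53 in HCT116 Mut and -1.69 in HCT116 WT cells. LRRC26, an auxiliary subunit of BK potassium channels, had 7.61, 8.45 and 19.8 in -Gln cells, against 35.6, 51.1 and 67.1 in +Gln cells, and changed least in HCT116 WT (-1.42, against -2.19 to -3.01). The remaining falls of this kind were in the ectonucleotidase ENPP1 (-1.77 ± 0.13), the neuropeptide galanin, GAL (-1.82 ± 0.12), the ADP receptor P2RY1 (-1.70 ± 0.11), the nicotinic receptor subunit CHRNA5 (-1.75 ± 0.11), the cationic amino acid transporter SLC7A2 (-1.81 ± 0.14), the vitamin E carrier TTPA (-1.99 ± 0.15) and the sterol-regulated membrane protein TMEM97 (-1.54 ± 0.08). TTPA was near the lower end of the arrays, between 2.23 and 10.6 in -Gln and between 11.1 and 35.9 in +Gln cells.

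The promoters of 5 shared genes show the letters behind the motif counts that follow, and were chosen after those counts were seen. They run from 250 bases before to 50 bases after the transcript start in RefSeq on GRCh38.p14, printed 5′ to 3′ on the gene's own strand. Capitals mark the E-box CACGTG, the E2F motif GCGGGAA, the cAMP response element TGACGTCA and the NF-Y motif CCAAT on either strand. BHLHE41 lies on the minus strand at chr12:26124988-26125287, LDHA, the lactate dehydrogenase A gene, on the plus strand at chr11:18394313-18394612, SRM, the spermidine synthase gene, on the minus strand at chr1:11059969-11060268, RAD54L on the plus strand at chr1:46247438-46247737 and H2BC14 on the plus strand at chr6:27814772-27815071.
BHLHE41: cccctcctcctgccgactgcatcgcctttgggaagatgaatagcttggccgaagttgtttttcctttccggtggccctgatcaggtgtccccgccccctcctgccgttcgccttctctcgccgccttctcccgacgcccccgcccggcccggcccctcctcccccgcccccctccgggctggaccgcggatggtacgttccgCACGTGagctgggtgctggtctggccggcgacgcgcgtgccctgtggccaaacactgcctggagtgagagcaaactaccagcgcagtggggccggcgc
LDHA: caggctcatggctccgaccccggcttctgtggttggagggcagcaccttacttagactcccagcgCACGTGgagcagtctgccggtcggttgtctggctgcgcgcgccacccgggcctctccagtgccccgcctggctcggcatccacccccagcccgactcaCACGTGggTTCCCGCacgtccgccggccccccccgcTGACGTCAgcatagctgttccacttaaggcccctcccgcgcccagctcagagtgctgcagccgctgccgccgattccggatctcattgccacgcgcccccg
SRM: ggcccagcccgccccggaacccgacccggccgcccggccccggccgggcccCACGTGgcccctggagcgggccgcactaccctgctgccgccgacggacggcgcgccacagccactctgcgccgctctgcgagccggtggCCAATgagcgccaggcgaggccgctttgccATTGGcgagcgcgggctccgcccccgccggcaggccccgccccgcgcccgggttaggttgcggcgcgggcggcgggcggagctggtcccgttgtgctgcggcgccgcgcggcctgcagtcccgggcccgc
RAD54L: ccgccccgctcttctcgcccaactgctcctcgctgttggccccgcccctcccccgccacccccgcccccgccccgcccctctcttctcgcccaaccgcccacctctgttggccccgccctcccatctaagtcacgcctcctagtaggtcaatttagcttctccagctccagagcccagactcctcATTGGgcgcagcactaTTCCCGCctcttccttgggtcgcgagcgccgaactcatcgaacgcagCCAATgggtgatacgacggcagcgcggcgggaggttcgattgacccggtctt
H2BC14: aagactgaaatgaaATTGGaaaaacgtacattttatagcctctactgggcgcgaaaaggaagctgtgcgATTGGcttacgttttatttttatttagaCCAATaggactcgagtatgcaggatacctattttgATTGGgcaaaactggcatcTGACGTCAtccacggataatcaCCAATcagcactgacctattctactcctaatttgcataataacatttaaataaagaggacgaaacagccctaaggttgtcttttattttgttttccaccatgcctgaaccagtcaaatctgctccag
BHLHE41 held 1 E-box, 48 bases before the start. LDHA held an E-box 185 and another 87 bases before the start, an E2F motif at 79 and a cAMP response element at 51 bases. SRM had an E-box at 199 bases and RAD54L an E2F motif at 49 bases, each with NF-Y motifs at 2 places. H2BC14 had 5 NF-Y motifs and 1 cAMP response element, and 256 of these bases are also in the 300-base window of H2AC14, which is read from the other strand.

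Of the shared genes 453 higher and 475 lower ones had such a promoter, as did 11735 of all tested genes, and a match is a description, not a site. Members of the frame lists were not removed for these counts. The shared higher genes include 17 ATF4 targets, and the shared lower genes include 34 replication and 14 sterol synthesis genes. What they add to the shares below was not tested. On both strands, with overlapping matches of different motifs counted for each, the E-box CACGTG was in 9.93% of shared higher and 15.2% of shared lower promoters, against 9.68% of all. The E2F motif GCGGGAA was in 8.39% and 16.8%, against 9.69%, and the NF-Y motif CCAAT in 32.7% and 41.7%, against 35.7%. The AP-1 motif TGANTCA ran the other way, with 7.06% of shared higher and 2.74% of shared lower promoters, against 4.91%. The C/EBP-ATF element TGATGNAA was in 2.65% and 1.47% (1.93% of all), the cAMP response element TGACGTCA in 3.31% and 4% (3% of all), the NRF1 motif GCATGCGC in 4.86% and 5.68% (4.86% of all) and the ETS motif ACCGGAAG in 3.09% and 4.21% (3.76% of all). BHLHE41 and LDHA, which moved in opposite directions, both carry the E-box.

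**Figure D2:**
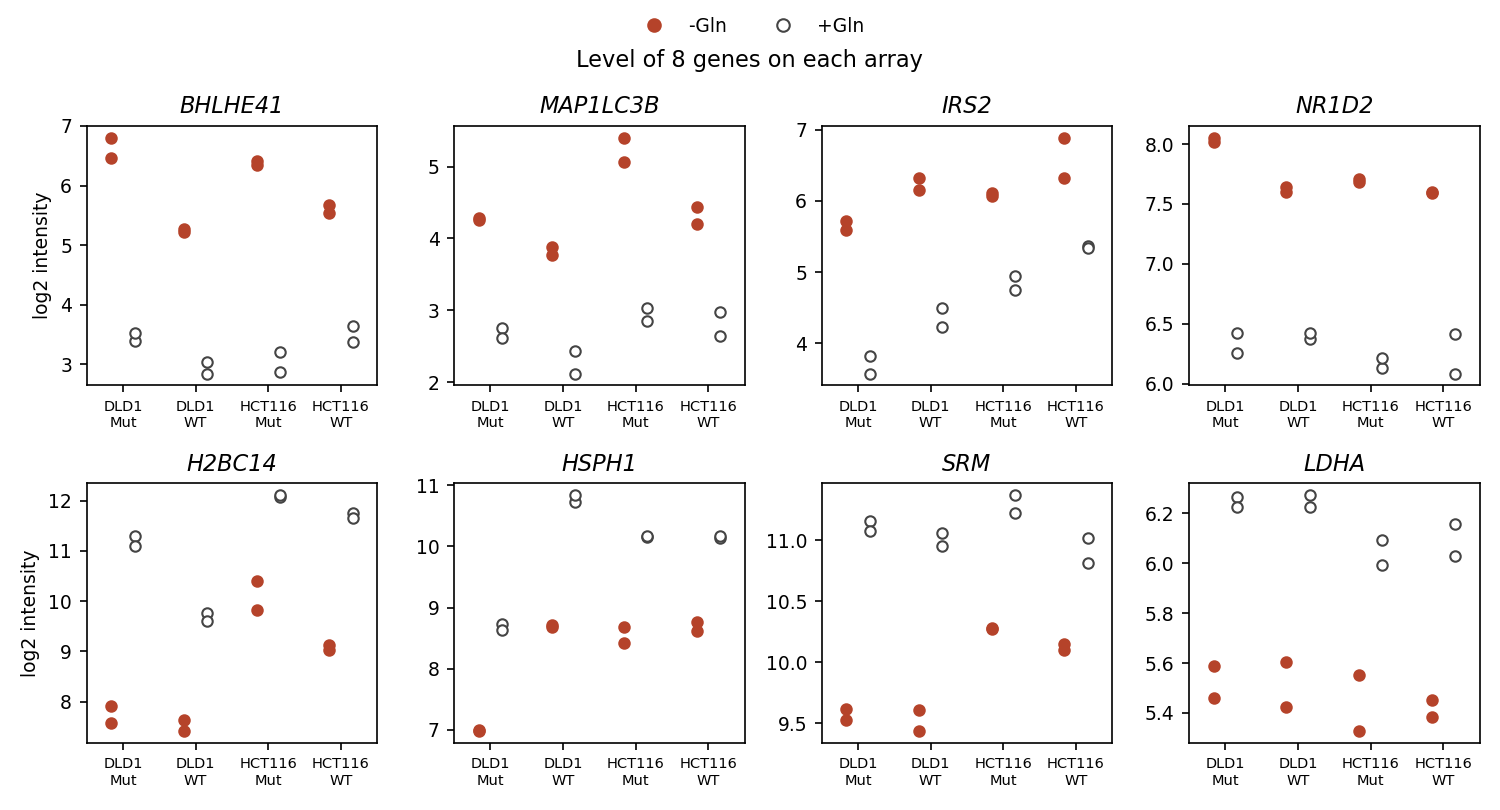
Log2 intensity (y axis) of 8 genes on each array, by derivative, with -Gln arrays as filled points to the left of +Gln arrays as open points. BHLHE41, MAP1LC3B, IRS2 and NR1D2 are higher without glutamine in every derivative, and H2BC14, HSPH1, SRM and LDHA lower, while the level with glutamine differs between derivatives most for H2BC14.

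The response was then read through lists of genes with a common role, whose counts stand against the 20.1% of all tested genes that rose and the 19.3% that fell. Among 55 tested lysosome and autophagy genes 31 rose and 6 fell (median log2 change 0.31), and 11 were shared higher and 1 shared lower genes. NBR1, a receptor that brings cargo to autophagosomes, had 541, 583 and 671 in -Gln cells, against 216, 257 and 318 in +Gln cells. No arrays overlapped, and its change differed little over the derivatives, at 1.07 to 1.33. OPTN, another autophagy receptor, rose by 1.42 ± 0.10 and RB1CC1, a subunit of the ULK1 complex that starts autophagosomes, by 0.71 ± 0.06. The shared member that fell was GLA, the lysosomal alpha-galactosidase (-1.08 ± 0.08). Ubiquitin ligases and arrestin adaptors rose in 20 of 33 and fell in 3 (median 0.38). ARRDC4, an arrestin-like adaptor for ubiquitin ligases, had 166, 246 and 338 in -Gln cells and 42.0, 84.5 and 117 in +Gln cells, with no overlap, while SKP2, which recruits cell cycle inhibitors for degradation, fell by 1.39 on the log2 scale.

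Genes of growth factor signalling and of early transcription rose in greater numbers than they fell. ERK feedback genes rose in 19 of 28 and fell in 2 (median 0.53), and 7 were shared higher genes. DUSP5, a phosphatase that inactivates nuclear ERK, rose by 1.48 ± 0.11, DUSP6, its cytoplasmic counterpart, by 0.70 ± 0.07 and the receptor tyrosine kinase EPHA2 by 1.24 ± 0.12, while the phosphatase DUSP2 fell by 0.76. Among 13 ephrins and ephrin receptors 3 rose and 6 fell. The rises were those of EPHA2, of EFNB2 (0.69 ± 0.07), the other shared gene of this list, and of EFNA1 (0.50 ± 0.10), both ligands named after their values were seen. EFNA3 (-0.87 ± 0.14), EPHA1 (-0.64 ± 0.11), EPHB4 (-0.51 ± 0.11) and EFNA2 (-0.57 ± 0.15) were among the falls, and each lost its call when 1 of the lines was tested alone. Immediate early and AP-1 genes rose in 12 of 24 and fell in 0, and 4 were shared higher genes. The median of this list was -0.03 in DLD1 Mut, 0.42 in DLD1 WT, 0.61 in HCT116 Mut and 0.27 in HCT116 WT cells. JUN, the core AP-1 subunit, had 192, 540.5 and 1206 in -Gln cells, against 114, 126 and 163 in +Gln cells. No arrays overlapped, but its change was 3.30 in HCT116 Mut and 0.67 in HCT116 WT cells, and the test of a difference among derivatives gave a limma adjusted p of 3.76e-05. FOSL1, a Fos family partner of JUN, rose by 1.02 ± 0.11, and the Krüppel-like factors rose in 10 of 14 and fell in 1 (median 0.62), with KLF10 at 1.03 ± 0.10 and KLF11 at 1.08 ± 0.12.

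Secreted stress hormones and growth factors rose in 12 of 24 and fell in 1 (median 0.43). GDF15, a stress hormone that acts on the hindbrain, had 2280.3, 3036 and 3931 in -Gln cells, against 1099, 1466 and 1845 in +Gln cells, without overlap. The EGF receptor ligands HBEGF and TGFA rose by 1.21 ± 0.12 and 0.55 ± 0.08, and PDGFB by 0.58 ± 0.08. EGFR, the receptor of HBEGF and TGFA and a member of the PI3K-AKT list, rose without overlap. It had 490.0, 557 and 600.2 in -Gln cells and 194, 231 and 318 in +Gln cells. In that list 13 of 37 rose and 7 fell, and all 5 of its shared genes were higher. IRS2, the adaptor that links insulin receptors to PI3K, had 48.1, 70.1 and 119 in -Gln cells, against 11.9, 24.7 and 41.1 in +Gln cells, and did not overlap. RICTOR, the defining subunit of mTORC2, rose by 0.60 ± 0.07 and INPP4B, a phosphoinositide phosphatase, by 0.58 ± 0.07, and PIK3R4, a regulatory subunit of VPS34, fell by 0.65. The rises of EGFR and IRS2 were present in Mut and WT derivatives of both lines. IRS2 was at 1.95 and 1.87 in DLD1 Mut and DLD1 WT cells and at 1.25 and 1.26 in HCT116 Mut and HCT116 WT cells. The list as a whole had a median of 0.13 in DLD1 Mut, 0.19 in DLD1 WT, -0.05 in HCT116 Mut and 0.17 in HCT116 WT cells.

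Adhesion and epithelial lists also had more rises than falls. Integrins, laminins and focal adhesion genes rose in 17 of 30 and fell in 5 (median 0.32), with the heparan sulphate proteoglycan SDC4 at 1.32 ± 0.08, its relative SDC1 at -1.15 ± 0.10, the linker plectin, PLEC, at 1.05 ± 0.08 and LAMB2 at 0.93 ± 0.08. SDC4 had 1439.5, 1657 and 2230.1 in -Gln cells and 538, 698 and 887 in +Gln cells, and SDC1 36.8 to 68.6 in -Gln and 79.4 to 181 in +Gln cells, so the 2 syndecans moved in opposite directions without overlap. YAP-TEAD targets rose in 16 of 29 and fell in 3 (median 0.45), with AJUBA at 1.00 ± 0.07 and the receptor AXL at 1.15 ± 0.14, and the factor TEAD2 fell by 1.30. The median of the list was 0.81 in DLD1 Mut, 0.60 in DLD1 WT, 0.40 in HCT116 Mut and 0.05 in HCT116 WT cells, and in HCT116 alone 9 members were higher. CCN2 had a change of 0.53 in HCT116 WT and of 1.73 to 2.45 elsewhere and was not a shared gene. Keratins and epithelial junctions rose in 16 of 37 and fell in 7, with the junction scaffold TJP1 at 0.77 ± 0.09 after KRT80.

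The circadian clock list rose in 11 of 20 and fell in 2 (median 0.56). NR1D2, the nuclear receptor REV-ERB-beta, had 193, 202 and 266 in -Gln cells, against 67.8, 79.7 and 85.9 in +Gln cells, and the period gene PER1 75.4, 134 and 187 in -Gln cells, against 26.4, 38.4 and 52.4 in +Gln cells. Both were without overlap, with log2 changes of 1.45 ± 0.08 and 1.72 ± 0.13, and, with BHLHE41, are repressors within the clock loop. TIMELESS, which in mammals serves the replication fork, was the shared member that fell (-1.19 ± 0.11). The 2-oxoglutarate-dependent demethylases and hydroxylases, whose cosubstrate derives from glutamine, rose in 16 of 38 and fell in 8, and all 7 of their shared genes were higher. They included the histone H3 lysine demethylases KDM5B (1.20 ± 0.09) and KDM4B (0.88 ± 0.10), JMJD1C (0.96 ± 0.11) and the nucleic acid demethylase ALKBH3 (0.67 ± 0.08), while the collagen lysyl hydroxylase PLOD1 fell by 1.04.

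Cell death regulators rose in greater numbers than they fell. In the BCL2 family and death receptor list 11 of 27 rose (40.7%) and 6 fell (22.2%), and 6 of its 7 shared genes were higher. The share that fell is near the 19.3% of all tested genes. The death receptor TNFRSF10B, which binds TRAIL, had an even change, with 0.89 in DLD1 Mut, 0.85 in DLD1 WT, 0.90 in HCT116 Mut and 0.91 in HCT116 WT cells. The pro-death BH3-only gene PMAIP1 rose by 0.97 ± 0.09 and the pro-survival genes MCL1 and BIRC2 by 0.78 ± 0.08 and 0.82 ± 0.08, and the BH3-only gene BID fell by 0.82. Of 28 p53 targets 10 rose and 3 fell, with GADD45A, TNFRSF10B, PMAIP1 and BBC3 (0.95 ± 0.12) as the shared ones. The list had a median of 0.54 for HCT116 Mut, against -0.05 for DLD1 Mut, 0.01 for DLD1 WT and 0.08 for HCT116 WT. With DLD1 tested alone its median was -0.01. The death receptor FAS fell by 0.79 on average. FAS changed by -1.13 in DLD1 Mut, -1.08 in DLD1 WT, 0.16 in HCT116 Mut and -1.13 in HCT116 WT cells, and lost its call in HCT116 alone. NF-kB feedback genes rose in 10 of 18 and fell in 0, of which 2 were shared, the deubiquitinase CYLD (1.21 ± 0.15) and NFKB2 (1.02 ± 0.13).

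Chaperone, ribosome biogenesis, proteasome, nuclear pore, splicing and recombination genes fell in greater numbers than they rose. Cytosolic and mitochondrial chaperones fell in 24 of 29 and rose in 2 (median -0.49), and 15 were shared lower genes. After HSPH1 came the co-chaperone FKBP4 (-1.32 ± 0.10), the mitochondrial Hsp90 TRAP1 (-1.14 ± 0.10) and the inducible cytosolic Hsp90 HSP90AA1 (-0.79 ± 0.06), and the prefoldin subunit PFDN2 rose by 0.26. Ribosome biogenesis genes fell in 32 of 43 and rose in 1 (median -0.42), with 15 shared. TCOF1, a nucleolar cofactor of RNA polymerase I (-0.95 ± 0.07), and the ribosome assembly factors GRWD1 (-0.88 ± 0.07), BOP1 (-1.16 ± 0.09) and MRTO4 (-0.71 ± 0.06) were among them, and RRN3, an initiation factor of RNA polymerase I, rose by 0.31. Proteasome genes fell in 23 of 33 and rose in 1 (median -0.29), led by the regulatory subunit PSMD1 with 427, 494 and 716 in -Gln cells, against 935, 1098 and 1159 in +Gln cells. The 1 that rose, PSMD4 (0.30 ± 0.11, limma adjusted p = 0.0449), was read by a dim probe set, between 3.91 and 8.76, and lost the call under 20 of 29 other settings or left-out arrays.

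Nuclear transport and pore genes fell in 24 of 45 and rose in 4 (median -0.26), and 16 were shared lower genes. NUP205, a scaffold nucleoporin, had 165, 194 and 228 in -Gln cells, against 308, 348 and 394 in +Gln cells, with no overlap and changes of -0.77 to -0.90 in the 4 derivatives. The pore membrane protein NDC1 fell by 1.26, the importin IPO9 by 0.88 and NUP93 by 0.83, while the importin-alpha KPNA4 rose by 0.86. Splicing factors fell in 35 of 53 and rose in 3 (median -0.29), with SRSF2 (-1.44 ± 0.11), SNRNP70 of the U1 particle (-1.06 ± 0.09) and HNRNPD (-1.03 ± 0.10), and the splicing kinase CLK4 rose by 0.68. Homologous recombination and Fanconi anaemia genes fell in 23 of 35 and rose in 2 (median -0.46), with the helicase BLM (-1.14 ± 0.10) and the core complex gene FANCB (-1.25 ± 0.11) beside RAD54L.

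Energy metabolism fell more than it rose. Of 44 TCA cycle and respiratory chain genes 26 fell and 1 rose (median -0.31). The fall was led by IDH2, the mitochondrial NADP-dependent isocitrate dehydrogenase, with a median of 93.4 and a highest value of 142 in -Gln cells, against a lowest of 176 and a median of 211 in +Gln cells, and the 1 rise was that of OGDH, the 2-oxoglutarate dehydrogenase (0.63 ± 0.12). The change of OGDH was 1.00 in DLD1 Mut, 0.42 in DLD1 WT, 0.98 in HCT116 Mut and 0.13 in HCT116 WT cells. Mitochondrial protein import genes fell in 13 of 26 and rose in 3, with the import pore subunit TOMM40 at -0.62 ± 0.07. Glycolysis and hypoxia genes fell in 16 of 37 and rose in 8 (median -0.21). The liver-type phosphofructokinase PFKL had 60.4, 77.8 and 97.8 in -Gln cells, against 132, 156 and 182 in +Gln cells, and LDHA, which regenerates NAD+, 40.2, 43.9 and 48.7 in -Gln cells, against 63.7, 73.0 and 77.4 in +Gln cells. Neither overlapped, and the change of LDHA was nearly equal in the derivatives, at -0.60 to -0.73. GPI fell by 1.16 and PFKM by 0.65, whereas EPAS1, the hypoxia-inducible factor HIF-2-alpha, rose by 0.61. Fatty acid oxidation genes fell in 10 of 32 (31.2%) and rose in 2 (6.25%), with HADH at -1.13 ± 0.11.

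The polyamine, iron, zinc, tubulin and Wnt lists came next. SRM, which makes spermidine, had 694, 941 and 1247 in -Gln cells, against 1805, 2148 and 2649.9 in +Gln cells, and was the only shared gene among 19 polyamine genes, of which 5 rose (26.3%) and 6 fell (31.6%). SAT1, which acetylates spermidine and spermine for export, rose by 0.87 ± 0.13. TFRC, the transferrin receptor, had 365, 387 and 590.3 in -Gln cells, against 939, 1017 and 1145 in +Gln cells, with no overlap. In the iron list 4 of 29 rose and 11 fell, and the ferritinophagy receptor NCOA4 rose by 0.51 ± 0.06. The zinc importer SLC39A10 fell by 1.25 in a list of metallothioneins and zinc transporters where 5 of 25 rose (20%) and 6 fell (24%), shares near those of all tested genes. Tubulins and their folding cofactors fell in 8 of 26 (30.8%) and rose in 5 (19.2%), against 19.3% and 20.1% of all tested genes. These counts alone are no result about the list. TUBB changed by -0.72 ± 0.06. Wnt targets fell in 10 of 22 and rose in 3 (median -0.39), with the feedback scaffold AXIN2 (-1.51 ± 0.15) as the only shared one. The median of this list was -0.62 in DLD1 Mut and -0.76 in DLD1 WT, against -0.10 in HCT116 Mut and -0.03 in HCT116 WT cells, and in HCT116 alone 2 members were lower. NKD1, another Wnt feedback gene, had changes of -2.23 in DLD1 Mut, -2.08 in DLD1 WT, -0.68 in HCT116 Mut and -0.44 in HCT116 WT cells.

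Several lists split. Endoplasmic reticulum chaperone and stress genes rose in 11 of 26 and fell in 8. The sensor ERN1, the co-chaperone DNAJB9 (0.98 ± 0.09) and the degradation genes HERPUD1 (0.94 ± 0.09) and EDEM1 (0.56 ± 0.08) were shared higher genes, while the folding enzyme PDIA4 (-0.94 ± 0.11) and SDF2L1 (-0.61 to -1.44 over the derivatives) were shared lower genes. In the hexosamine and O-GlcNAc list 3 of 12 rose (25%) and 2 fell (16.7%). These shares are near the 20.1% and 19.3% of all tested genes, so the counts alone are no result about this list. OGA, which removes O-GlcNAc, had 356, 420 and 516 in -Gln cells, against 193, 256 and 343 in +Gln cells, and OGT, which adds it, fell by 0.39 on average, with changes of -0.37 in DLD1 Mut, -0.26 in DLD1 WT, -0.95 in HCT116 Mut and 0.003 in HCT116 WT cells. Glycerolipid and phospholipid genes rose in 10 of 32 (31.2%) and fell in 8 (25%), not far above the shares of all tested genes. Among them were the choline kinase CHKA at 0.99 ± 0.09 and the phosphatidylserine synthase PTDSS1 at -1.48 ± 0.16. Genes of mRNA decay rose in 11 of 34 (32.4%) and fell in 6 (17.6%), where the cytoplasmic exonuclease XRN1 rose by 0.73 and the nuclear exonuclease XRN2 fell by 0.55. Translation initiation factors fell in 13 of 40 (32.5%) and rose in 5 (12.5%). EIF5B changed by -0.57 ± 0.06 and EIF1, which guards start codon choice, by 0.73 ± 0.10.

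TGF-beta and BMP genes (10 of 35 rose and 8 fell), interferon-stimulated genes (8 of 40 and 11), ER to Golgi transport (11 of 38 and 7) and NRF2 targets (5 of 24 and 8) had rises and falls in more even numbers, with 20% to 28.9% of members higher and 18.4% to 33.3% lower, against 20.1% and 19.3% of all tested genes, so these counts alone are no result about the lists. Of these the lysosomal thiol reductase IFI30 fell by 1.38, the NRF2 target and transporter ABCC3 rose by 1.10 and the pentose phosphate enzymes TKT and PGD fell by 0.95 and 0.74. For scale, 30 of 50 ATF4 targets rose and 1 fell, 45 of 48 replication genes fell and 0 rose, and 18 of 21 sterol synthesis genes fell and 1 rose, with PPP1R15A at 2.77 ± 0.12, GINS2 at -2.03 ± 0.13 and INSIG1 at -2.45 ± 0.20. Lists share members, and the text gives a part of each.

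Several of these counts were smaller by more than 1.5 times in a single line, where 8 in place of 16 arrays were tested. In HCT116 alone 19 lysosome and autophagy genes, 11 ubiquitin ligases and adaptors, 7 PI3K-AKT genes, 5 NF-kB feedback genes, 7 mRNA decay genes and 7 ER to Golgi genes were higher. Lower there were 10 glycolysis and hypoxia genes, 7 mitochondrial import genes, 4 fatty acid oxidation genes, 6 translation initiation factors, 6 iron genes and 6 interferon-stimulated genes. In DLD1 alone 11 integrin and adhesion genes, 7 endoplasmic reticulum genes and 6 glycerolipid genes were higher, and 15 proteasome genes and 23 splicing factors lower.

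**Figure D3:**
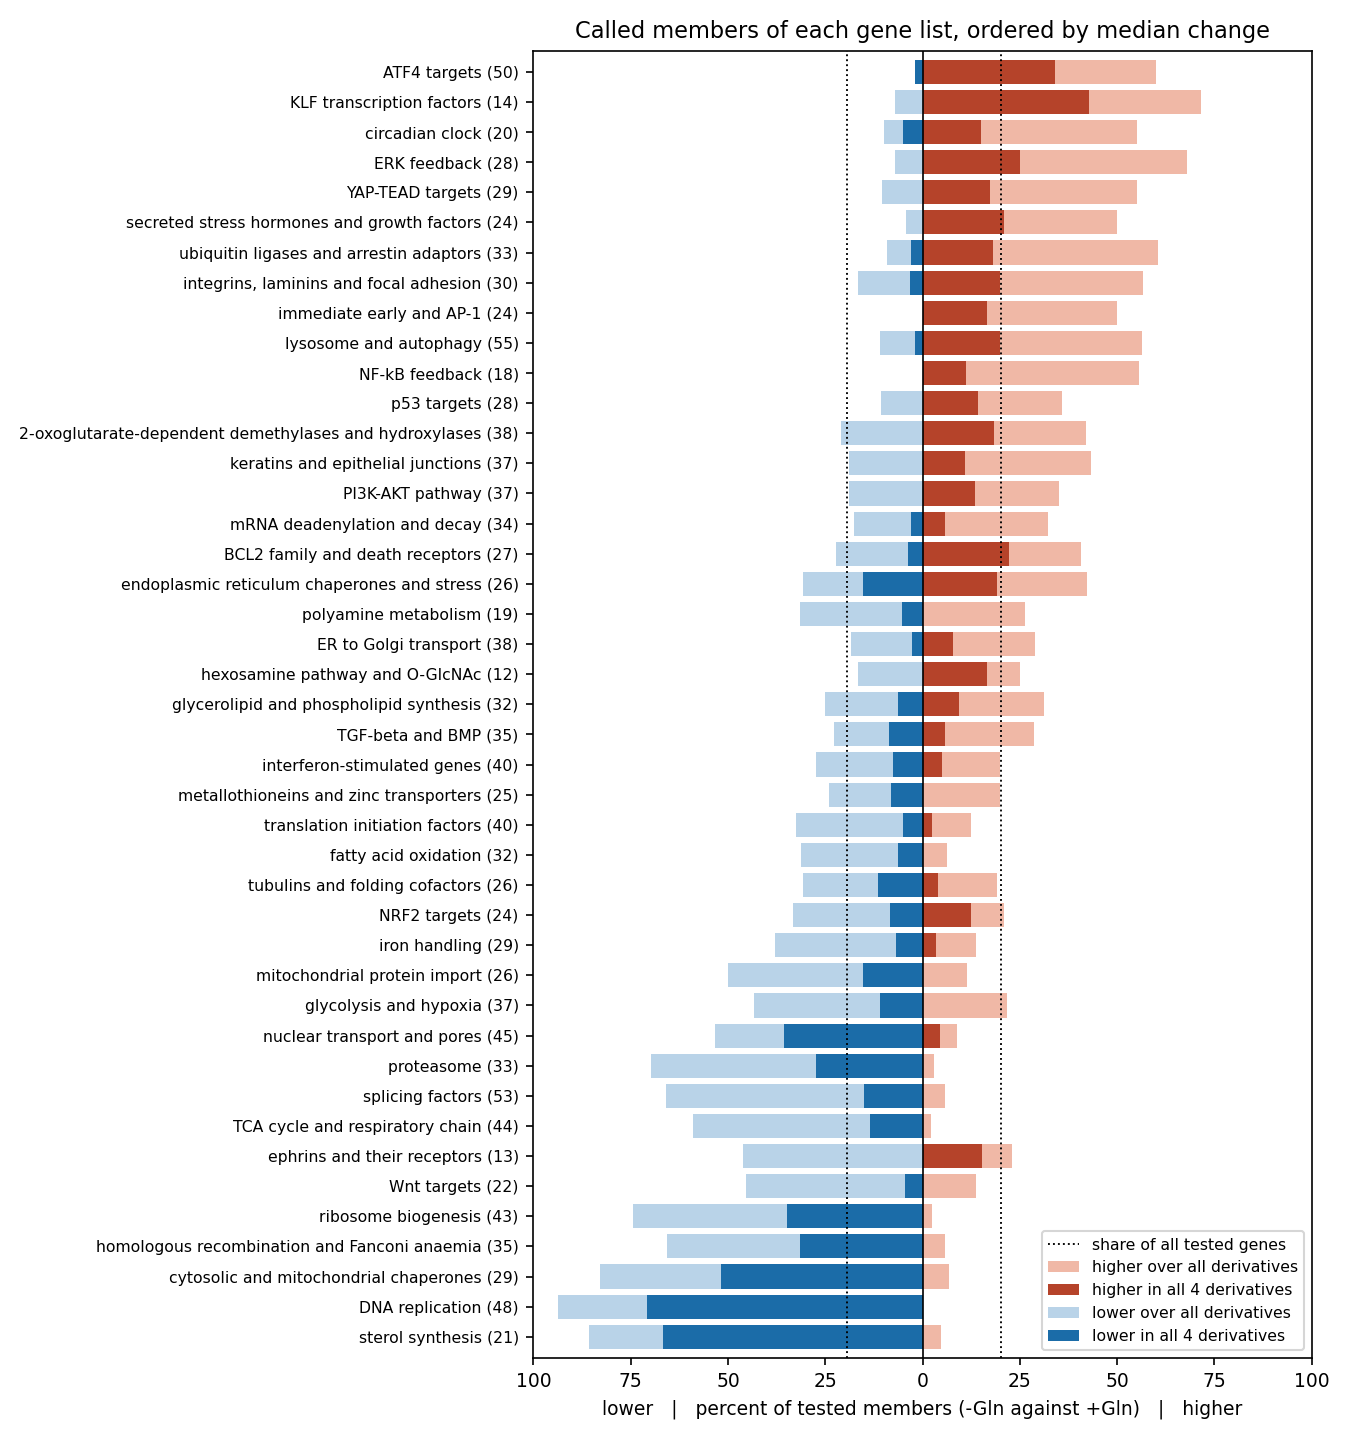
Percent of the tested members (number in brackets) of each list that were called higher (right) or lower (left) in -Gln than in +Gln cells, ordered by median change. Pale bars are calls over all derivatives, dark bars the shared genes, and dotted lines the 20.1% and 19.3% of all tested genes. After sterols and replication the lowest medians are those of chaperones, recombination and ribosome biogenesis, and the highest are those of ATF4 targets, KLF factors, the clock and ERK feedback.

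How far the shared genes moved differed between derivatives. Their median absolute log2 change was 0.89 in DLD1 Mut, 0.75 in DLD1 WT, 0.81 in HCT116 Mut and 0.66 in HCT116 WT cells. Of the 1131 shared genes 421 changed most in DLD1 Mut, 185 in DLD1 WT, 373 in HCT116 Mut and 152 in HCT116 WT cells, and 486 changed least in HCT116 WT. The median range over the 4 changes of a shared gene was 0.54. Differences between derivatives were called by limma's moderated F test for 3661 genes (23.4%), among them 213 shared higher and 232 shared lower genes. Across all tested genes the changes of DLD1 Mut and DLD1 WT correlated at r = 0.73, those of HCT116 Mut and HCT116 WT at 0.54 and those across lines at 0.41 to 0.53, as a description over genes, which are not independent.

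The most even of the shared genes that moved by more than 1 everywhere included LCN2, an iron-siderophore binding protein (1.41 in DLD1 Mut, 1.36 in DLD1 WT, 1.39 in HCT116 Mut and 1.21 in HCT116 WT cells), CHMP4C, an ESCRT-III subunit of the abscission checkpoint (1.02 to 1.24), SGTB, a small co-chaperone (1.05 to 1.25), SMIM19 (1.06 to 1.28), the Nudix hydrolase NUDT8 (-1.03 to -1.25) and NBR1. LCN2 had 24.3, 40.5 and 54.2 in -Gln cells, against 8.80, 16.5 and 19.9 in +Gln cells, with no overlap. At the other extreme 490 genes were called higher in 1 derivative and lower in another. ASNS, asparagine synthetase, changed by 1.16 in DLD1 Mut, 2.28 in DLD1 WT, -0.71 in HCT116 Mut and 0.49 in HCT116 WT cells. The serine synthesis enzymes PHGDH and PSAT1 and the glutathione-degrading CHAC1 also had their negative change in HCT116 Mut, of -1.24, -1.27 and -0.47, and positive ones in the other derivatives. GEM, a small GTP-binding protein, changed by -1.12 in DLD1 Mut and -1.61 in DLD1 WT, and by 2.97 in HCT116 Mut and 1.44 in HCT116 WT cells. ID1, an inhibitor of basic helix-loop-helix factors, changed by 0.53 in HCT116 WT and by -0.36 to -1.95 in the others.

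**Figure D4:**
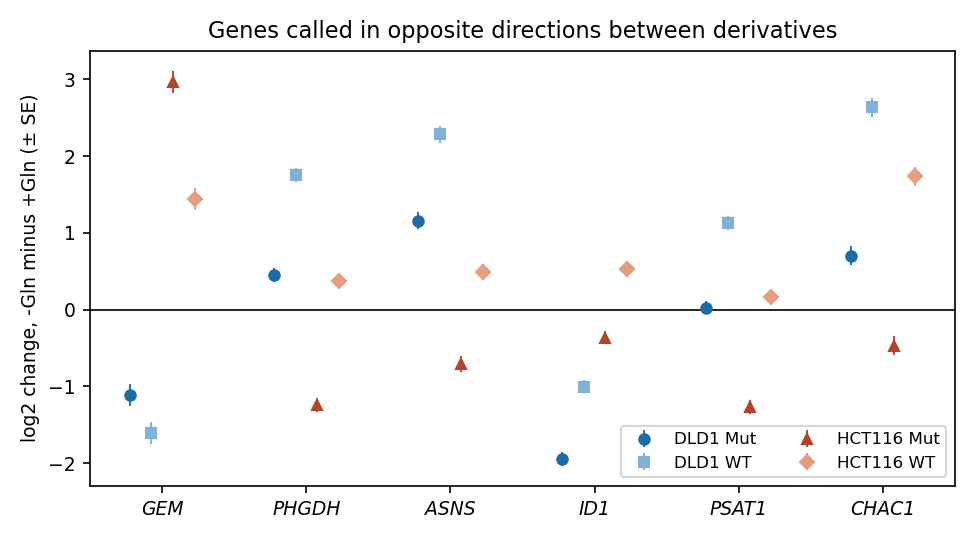
Log2 change, -Gln minus +Gln (y axis), of the 6 genes called in opposite directions between derivatives with the smallest p of the F test. Points are derivatives (2 against 2 arrays) and bars limma SE. PHGDH, ASNS, PSAT1 and CHAC1 lie below 0 in HCT116 Mut only.

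Being shared went with brightness. Of the 3919 dimmest tested genes 1 was a shared higher and 0 were shared lower genes, against 302 (7.71%) and 377 (9.62%) of the 3919 brightest. Of the shared genes 530 higher and 564 lower ones were protein coding, with a median gene length of 42370.5 bases for the higher and 26440.5 bases for the lower ones, and 28174.5 bases over all tested coding genes. At the edge of the threshold stood ATF3 and SDF2L1 just inside and DDX6 and DDIAS just outside. ATF3 rose by 0.82 and SDF2L1 fell by 0.61 in HCT116 WT, where each changed little. DDX6, an RNA helicase of mRNA decay, changed by 0.27 in HCT116 WT and DDIAS, a DNA damage-induced suppressor of apoptosis, by -0.41 in DLD1 WT cells.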

How the data were processed

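Per the labels' protocols, total RNA was labelled with biotin by the Affymetrix whole-transcript procedure. The deposited values are linear intensities of 53617 probe sets on 16 arrays, and how the authors normalized them is not given in the sources used here. They were analysed as log2 intensity without a pseudocount. Probe sets were named through the platform annotation, with 90 symbols brought to RefSeq's current form: 23871 had 1 symbol, 1842 several and 27904 none. The brightest probe set stood for each of 22395 genes (632 had several), and the upper 70% by mean level (lowest mean log2 1.65) were tested.

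The change over all derivatives came from limma 3.58.1 in R 4.3.3 with derivative as a block (11 residual degrees of freedom), and changes per derivative from 8 group means (8 residual and 2.49 prior ones). Calls needed p under 0.05 after Benjamini-Hochberg adjustment across the 15676 tested genes. The fits were tested on simulated data.

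The 48 gene lists, 4 of them of markers, the shared genes and the rules below were chosen with earlier results of these data known. Of 1584 list symbols 1429 were on the array and 1368 tested; 1 list is not reported here. Named were the 14 shared rises and 14 shared falls with the largest least change outside the frame lists, up to 4 called members of each list with the smallest p plus 1 of the other sign, 6 genes called in opposite directions, the 6 most even shared genes above 1, 2 genes on either side of the shared threshold, and PPP1R15A, GINS2 and INSIG1. Not all of them are in the text. Histone and other near-identical genes are uncertain. Alternatives varied the blocks, filter, scaling, offset, probe set rule, variance model, fold minimum, definition of a shared gene, lines and single arrays. Replicate numbers did not pair the arrays: deviations of -Gln and +Gln arrays with the same number correlated at -0.02 to 0.02.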

Additional observations from a re-analysis of the deposited data

Results flagged for a closer look

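The response differed between derivatives, by limma's F test over the 3 differences, for many of the genes named above. The 6 genes with opposite calls had adjusted p-values of 1.39e-05 (GEM), 2.29e-05 (PHGDH), 2.76e-05 (ASNS), 2.76e-05 (ID1), 2.86e-05 (PSAT1) and 2.87e-05 (CHAC1). Of the shared rises LAMB3 (adjusted p = 0.000206), ETS1 (0.00119), GADD45A (0.00181), KRT80 (0.00237), MXD1 (0.00381), BHLHE41 (0.00416), LURAP1L (0.00473), LAMP3 (0.00504), UPP1 (0.00578), ATXN1 (0.0433) and ERN1 (0.0492) differed in size while keeping 1 direction. The largest change was that of HCT116 Mut for LAMB3, ETS1, KRT80, MXD1, BHLHE41, UPP1 and ATXN1, of DLD1 Mut for GADD45A, of DLD1 WT for LAMP3 and ERN1 and of HCT116 WT for LURAP1L. Of the shared falls CEMIP (0.00341), GAL (0.00496), H2BC14 (0.0085), LRRC26 (0.00977), ENPP1 (0.0284), CHRNA5 (0.0295) and HSPH1 (0.0434) differed in size.

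Among the probe sets with no single symbol, which entered no comparison above, 13229 were tested. Of these 117 were called with 1 sign in all 4 derivatives, 60 higher (0.454%) and 57 lower (0.431%).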

How the results depend on the processing

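The counts over all derivatives (3148 higher and 3030 lower) and their direction were stable within 1.5 times except in HCT116 alone (1904 and 1834) and with a log2 change of at least 1 (266 and 269). The counts of shared genes (555 and 576) were 56 and 45 with a log2 change of at least 1 in every derivative, 288 and 332 when the largest of the 4 p-values was adjusted once, 327 higher when each line was fitted separately, and 1512 and 1488 when only non-overlap of arrays within every derivative was asked for. The genes left by the first of these are few by construction. All 620 genes of the second were among the 1131, which is also fixed by construction. Leaving out 1 array at a time gave 2933 to 3087 higher and 2787 to 2979 lower genes over all derivatives, 356 to 507 shared higher and 423 to 533 shared lower genes, and 2845 to 3234 genes that differed between derivatives (3661 with all arrays).

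Replicate numbers name arrays and did not pair them, but with a replicate block over all arrays the counts were 3081 higher, 2979 lower, 521 shared higher, 547 shared lower and 3301 that differed. With a replicate block within each derivative, which leaves fewer degrees of freedom, they were 2719, 2590, 358, 394 and 1723.

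Quantile normalization moved the median change of all genes to 0.026 and a shift to equal medians to 0.017, with 3438 and 3355 higher genes. Among the 229 named genes that were checked, no called change turned its sign under any setting. GEM, PHGDH, ASNS, ID1, PSAT1 and CHAC1, which were called in opposite directions between derivatives, were not among these 229. For them the F test of a difference between derivatives was repeated instead, and all 150 repeats under other settings kept the call. The sign of each of their single changes was not checked in this way. GEM fell in the DLD1 derivatives and rose in the HCT116 derivatives. Of 229 named genes 22 lost their call in HCT116 alone (of those in the text OGT, PSMD4, RRN3, OGDH, EFNA3, EPHA1, EPHB4, FAS and NKD1) and 7 in DLD1 alone (PFDN2 and EFNA2), and PSMD4 and PPARA alone lost it under any other setting besides the fold minimum. Of the counts of list members, 226 of those computed under another setting moved by more than 1.5 times and 2414 did not. Among lists with at least 10 members called one way, the moves other than those under the fold minimum were in a single line, as given beside the lists, such as Wnt targets lower (2 in HCT116 alone, 10 with all arrays), YAP-TEAD targets higher (9 and 16) and proteasome genes lower (15 in DLD1 alone and 23), with the following exceptions. With a replicate block within each derivative 7 endoplasmic reticulum genes were higher, in place of 11, and from the 8 group means 16 p53 targets were, in place of 10. The medians of 9 of 44 lists, all between -0.06 and 0.20, had the other sign under at least 1 setting. Genes with low intensities were rarely called, so a small change in them was not detectable with these arrays. Changes later than 24 h were not measured for any gene.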
